A study of Mus musculus with 72 samples.

Results

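The expression of 10 genes that mark inhibitory neurons or encode neuropeptides (Gad1, Gad2, Slc32a1, Pvalb, Calb2, Sst, Vip, Npy, Cck and Tac1) was examined in the brain of Gnb5 knockout mice. The genes were taken by name, and each had 1 row among the 53715 gene identifiers counted. The 36 brain libraries came from 12 male mice aged 18 weeks on a C57BL/6J background, 6 Gnb5-/- mice with a germline deletion of Gnb5 exon 3 in every cell and 6 Gnb5+/+ mice. Each mouse gave 1 library of the cerebellum, 1 of the hippocampi and 1 of the cerebral cortex, which makes 6 groups of 6. No agent was given. Gnb5 encodes the G protein subunit Gβ5, the partner of the R7 regulators of G protein signalling. The loss was constitutive, so effects on development and on the adult brain cannot be told apart, and litters with Gnb5-/- pups were given extra food around weaning.

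Inhibitory neurons make GABA from glutamate with the decarboxylases GAD67 (Gad1) and GAD65 (Gad2) and load it into vesicles with the transporter VGAT (Slc32a1). In the hippocampus and the cortex they are a minority among excitatory cells and fall into classes named after the proteins they carry: the calcium buffers parvalbumin (Pvalb) and calretinin (Calb2), and the peptides somatostatin (Sst), vasoactive intestinal peptide (Vip), neuropeptide Y (Npy) and cholecystokinin (Cck). Tac1 encodes the precursor of substance P. In the cerebellum, Purkinje cells and the interneurons of the molecular and granular layers are GABAergic, Purkinje and basket or stellate cells also hold parvalbumin, and the excitatory granule cells hold calretinin. Several of these genes are shared with excitatory neurons of the forebrain, Cck above all. In whole tissue, fewer cells of a type and less RNA per cell cannot be told apart.

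Somatostatin is a textbook target of the cAMP response element, a short palindrome in its promoter. The promoter letters of Sst and Npy are shown because these genes had the largest decreases in the Gnb5-/- hippocampus. Those of Vip, whose hippocampal groups overlapped, are shown beside them. The sequences are those of RefSeq on GRCm38.p6, on the strand of the gene, and capitals mark the element or its shorter core.
Sst, 59 to 30 bases before the start, minus strand, chr16:23890874-23890903: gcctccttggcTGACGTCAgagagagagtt
Vip, 90 to 61 bases before the start, plus strand, chr10:5639128-5639157: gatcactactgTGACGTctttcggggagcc
Npy, 120 to 1 bases before the start, plus strand, chr6:49822590-49822709: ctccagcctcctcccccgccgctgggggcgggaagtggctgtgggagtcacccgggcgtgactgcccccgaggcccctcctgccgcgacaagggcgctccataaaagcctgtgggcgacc

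Both strands of the 250 bases before each start were searched for TGACGTCA and for the core TGACGT, which lies inside it. Of the 10 genes, 9 had a window in the RefSeq table, and Calb2 had none. The full element stood in the Sst window alone among them, from base 48 before the start. It was found in 1.55% of all 32851 windows. The core was found in Sst and, from base 79, in Vip, and in 6.47% of all windows. The Npy window held neither. A match of letters is a description of the sequence and no test of binding. A link between these letters and the levels in Gnb5-/- mice was not tested.

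Per library, 29204390 to 48807435 reads were assigned to genes (median 42339164). Levels are given as CPM (counts scaled to the same library total) after normalisation over the 36 brain libraries. Gnb5 itself was at 11.9 to 22.03 CPM in the 18 Gnb5-/- libraries and at 96.5 to 156 CPM in the 18 Gnb5+/+ libraries, so no library went against its label. The label of the cerebellum was met as well. The summed level of 5 cerebellar granule cell markers was 4142 to 4908 CPM there and 30.7 to 84.2 CPM in the other regions. The hippocampus and the cortex overlapped on this list, so it cannot check their labels against each other.

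Of the 36 libraries, 3 stood apart, and all were Gnb5-/-. In cerebellum replicate 2, cortex replicate 3 and cortex replicate 5 only 8.02%, 6.86% and 8.32% of the uniquely aligned reads fell outside genes, against 11.7% to 16.97% in the other 33. Most of the 10 genes were displaced in them. Cortex replicate 3 lay above the range of the other 33 libraries for 8 of the 10, on a log2 difference from the mean of its group's other libraries, and below it for Gad2. Pvalb and Cck were each 3.10 higher there on that scale, and Sst 2.78 higher. In cerebellum replicate 2, of the 8 genes with more than a few counts in that region, 6 lay above that range and 2, Slc32a1 and Gad2, below. In cortex replicate 5 the same scale gave 6 of 10 above and 0 below.

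**Figure D1:**
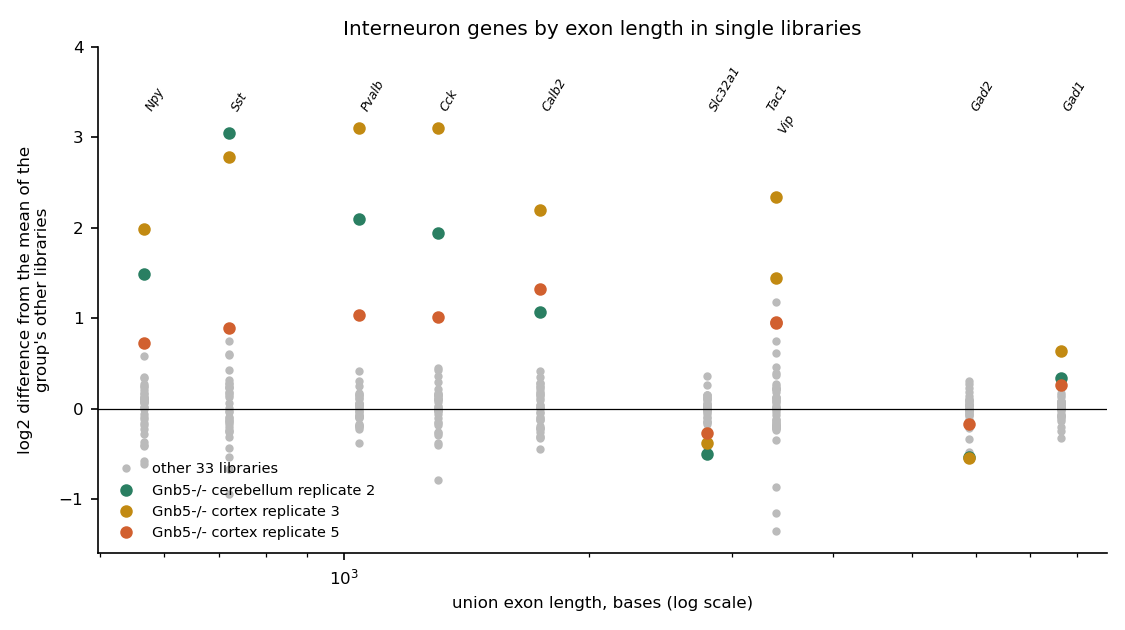
Each point is 1 gene in 1 library, placed by the union length of its exons (log axis, bases) and by its log2 CPM minus the mean of the other libraries of its group that do not stand apart. Grey points are the other 33 libraries, coloured points the 3 Gnb5-/- libraries with few reads outside genes, and Vip and Tac1 in the cerebellum are left out. The 5 genes with exons of 566 to 1743 bases lie 0.72 to 3.10 above 0 in the 3 libraries, while Slc32a1 and Gad2 lie below 0.

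The displacement varied with exon length over all genes too, though not evenly. In cortex replicate 3 the median gene with 1 to 2 kb of exon was 0.85 higher on the log2 scale and the median gene with over 8 kb was at -0.70, whereas in the other 33 libraries the 1 to 2 kb medians lay between -0.07 and 0.08. Genes of up to 1 kb, where Sst and Npy belong, had a median of only 0.22 in cortex replicate 3, 0.23 in cortex replicate 5 and 0.43 in cerebellum replicate 2. Union exon length did not order the 10 genes fully in cortex replicate 3. There Tac1 (3399 bases) was 2.34 higher and Gad1 (7639 bases) 0.64 higher, while Slc32a1 (2797 bases) was at -0.38. These lengths join the exons of all annotated isoforms, and the lengths of the transcripts expressed were not measured. Cell type markers moved as well. Summed excitatory neuron markers were at 1849 CPM in cortex replicate 3 and 3027 CPM in cortex replicate 5, against 4899 to 5663 CPM in the other 10 cortical libraries. Summed markers of the choroid plexus were at 884 CPM in cerebellum replicate 2 against 12.1 to 20.8 CPM in the other 11. The list did not rise as a whole in the cerebellar genotype fit with all libraries. There the log2 fold change of Ttr was 5.65, but that of Kl was 0.39, of Aqp1 -0.24 and of Otx2 -0.01. Folr1 was not tested in that region. The part of RNA quality, dissection or library preparation in these 3 libraries was not tested, and the genotype effects on the 10 genes in the cerebellum and the cortex are given with and without them.

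**Figure D2:**
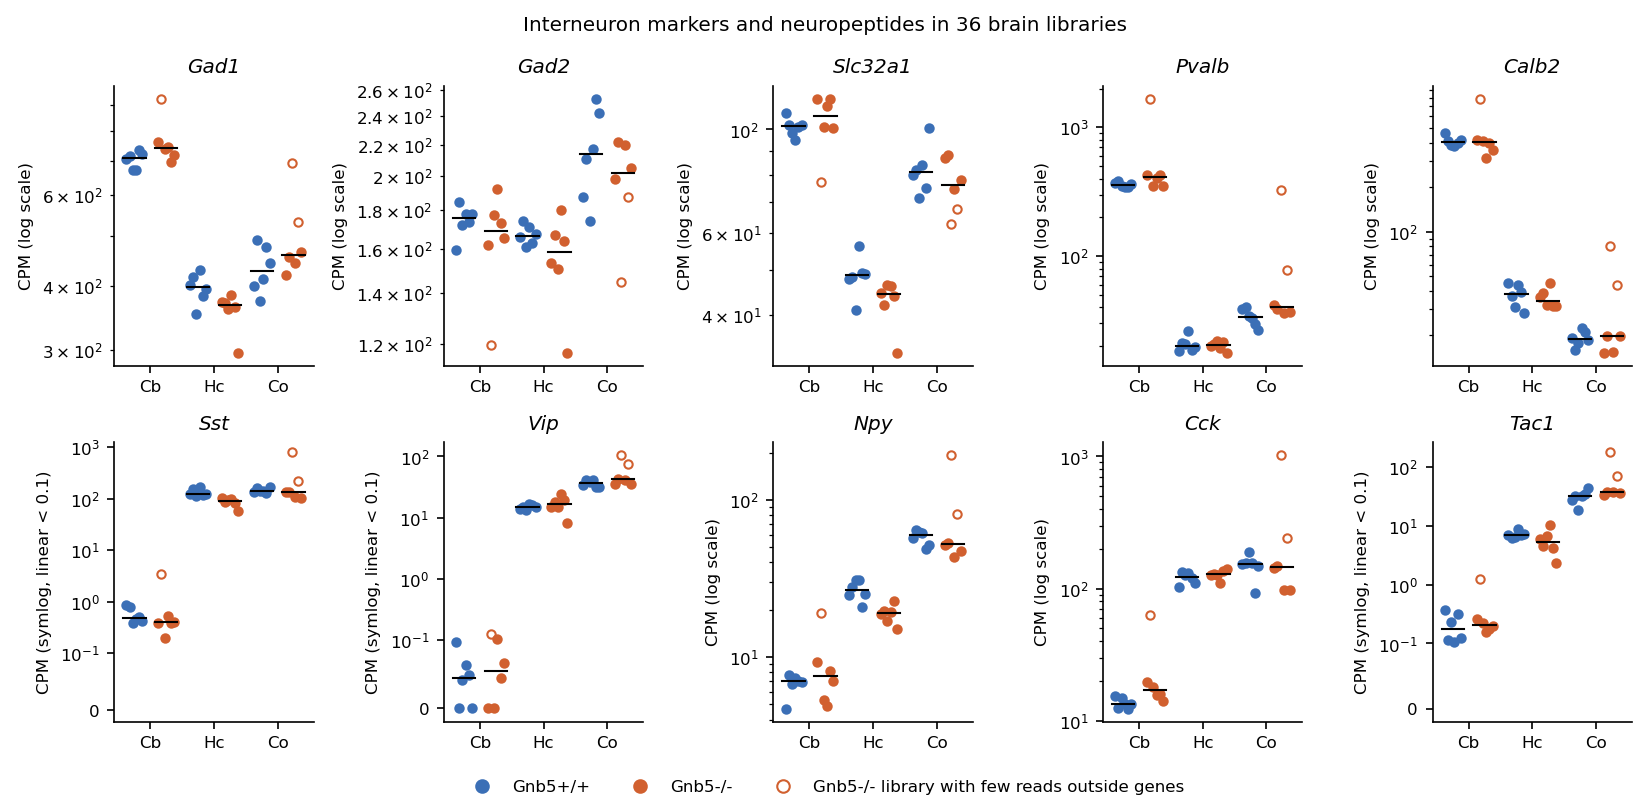
Each panel shows 1 gene in the cerebellum (Cb), hippocampus (Hc) and cerebral cortex (Co), 1 point per library, with CPM on a log axis (for Sst, Vip and Tac1 a symmetric log axis that is linear below 0.1 and shows 0), blue for Gnb5+/+ and orange for Gnb5-/-. Black lines are group medians and open circles the 3 libraries that stand apart. The open circles are the highest values of Pvalb, Sst, Npy, Cck and Calb2 in their groups, and the Sst points of the Gnb5-/- hippocampus lie under all those of Gnb5+/+.

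The regional pattern in Gnb5+/+ mice was examined first. Across the 18 libraries the 10 genes split between the cerebellum and the forebrain. The 2 calcium buffers were far higher in the cerebellum, the peptide genes were far lower there, and the GABA genes differed little by comparison. Set against the cerebral cortex, all 10 genes were differentially expressed in the cerebellum (edgeR's quasi-likelihood test, adjusted p below 0.05), 4 higher and 6 lower, where 77.4% of all 18577 genes tested were called. Set against the hippocampus, 9 of 10 were called in the cerebellum, 4 higher and 5 lower (77.2% of all genes). Between the hippocampus and the cortex 8 of 10 were called, 7 lower in the hippocampus and 1, Calb2, higher (48.3% of all genes). These shares sit on a high background, so the sizes carry more than the counts. With an absolute log2 fold change above 1 also required, 3 of 10 were called between the hippocampus and the cortex (Vip, Npy and Tac1), against 8.93% of all genes.

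Gad1, whose product makes most of the GABA in the cell body, was at 671 to 733 CPM in the Gnb5+/+ cerebellum (median 710), at 373 to 491 CPM in the cortex (median 427) and at 351 to 430 CPM in the hippocampus (median 397). The cerebellum lay above both other regions in every mouse and the other regions overlapped. Its log2 fold change was 0.70 (SE 0.059, adjusted p = 8.42e-10 in edgeR) for cerebellum over cortex. For hippocampus over cortex it was -0.13 (SE 0.059, adjusted p = 0.0755 in edgeR), and with the mouse as a replicate block the same difference was called (-0.13, SE 0.045, adjusted p = 0.0247, where 55.9% of all genes were called).

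Gad2, which serves the nerve terminal, was nearly level across the brain, at 160 to 185 CPM in the cerebellum, 161 to 174 CPM in the hippocampus and 174 to 253 CPM in the cortex of Gnb5+/+ mice. The cerebellum and the hippocampus overlapped, with a log2 difference of 0.06 (95% interval -0.08 to 0.20), and no hippocampal library reached the lowest cortical one. Hippocampus over cortex, it was at -0.36 on the log2 scale (SE 0.068, adjusted p = 0.000175 in edgeR).

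Slc32a1, the vesicular transporter, was at 95.1 to 108 CPM in the cerebellum, 71.2 to 101 CPM in the cortex and 41.1 to 56.4 CPM in the hippocampus of Gnb5+/+ mice. The hippocampus lay under both other regions in every library. Its log2 fold change for hippocampus over cortex was -0.76 (SE 0.072, adjusted p = 2.7e-08 in edgeR). The 3 GABA genes were thus not in a fixed proportion. Per kilobase of exon, the ratio of Gad1 to Gad2 was 3.11 ± 0.185 (SD, n = 6) in the cerebellum, 1.82 ± 0.0812 in the hippocampus and 1.57 ± 0.150 in the cortex.

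Pvalb was at 342 to 386 CPM in the Gnb5+/+ cerebellum, 26.7 to 40.0 CPM in the cortex and 18.4 to 26.2 CPM in the hippocampus. The 3 regions did not overlap. The cerebellum stood 10.7 times above the cortex and 17.4 times above the hippocampus in mean CPM (log2 fold changes 3.42, SE 0.094, and 4.12, SE 0.098), and hippocampus over cortex was at -0.70 (SE 0.091, adjusted p = 1.82e-06 in edgeR). Calb2 stood 21.3 times above the cortex and 10.9 times above the hippocampus in mean CPM in the cerebellum, at 380 to 462 CPM, with 28.6 to 45.3 CPM in the hippocampus and 15.9 to 22.5 CPM in the cortex. Again the regions did not overlap. It was the 1 gene of the 10 that was higher in the hippocampus than in the cortex, by 0.97 on the log2 scale (SE 0.10, adjusted p = 9.94e-08 in edgeR).

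Sst, the marker of dendrite-targeting interneurons, was at 127 to 167 CPM in the cortex and 114 to 169 CPM in the hippocampus of Gnb5+/+ mice, and at 0.393 to 0.878 CPM (17 to 36 reads) in the cerebellum. The forebrain regions overlapped and did not differ beyond their spread, with a log2 difference of -0.13 (95% interval -0.33 to 0.08). For cerebellum over cortex its log2 fold change was -7.99 (SE 0.16, adjusted p = 2.74e-20 in edgeR).

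Vip marks interneurons that mainly contact other interneurons. It was at 32.0 to 41.1 CPM in the cortex and 13.6 to 16.7 CPM in the hippocampus of Gnb5+/+ mice, and the regions did not overlap (log2 fold change -1.27, SE 0.10, adjusted p = 1.63e-09 in edgeR). In the cerebellum 11 Vip reads were counted in all 6 Gnb5+/+ libraries, 0 to 4 in each, and 2 libraries had 0. A count of 3 there is at most 0.0762 CPM, and the lowest cortical library stood 419 times above that.

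Npy, carried by several interneuron classes, was at 48.7 to 64.7 CPM in the cortex, 20.9 to 31.0 CPM in the hippocampus and 4.66 to 7.63 CPM in the cerebellum of Gnb5+/+ mice, with no overlap. Its log2 ratio of hippocampus to cortex was -1.11 (SE 0.10, adjusted p = 2.08e-08 in edgeR) and that of cerebellum to cortex -3.10 (SE 0.11).

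Cck was at 92.7 to 189 CPM in the cortex, 103 to 132 CPM in the hippocampus and 12.2 to 15.4 CPM in the cerebellum. The forebrain regions overlapped. The log2 ratio of hippocampus to cortex was -0.31 (SE 0.11, adjusted p = 0.0258 in edgeR), a call that was lost without 1 of 3 libraries: hippocampus replicate 1 (adjusted p = 0.0610), hippocampus replicate 6 (0.0550) or cortex replicate 3 (0.0809), all Gnb5+/+.

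Tac1 had the steepest fall from the cortex to the hippocampus, from 18.5 to 43.4 CPM down to 6.26 to 8.96 CPM (log2 fold change -2.14, SE 0.17, adjusted p = 1.18e-09 in edgeR). Its 6 cerebellar libraries held 5 to 15 reads each. Tac1 is also a product of striatal neurons, and 6 striatal markers summed to 254 to 589 CPM in the Gnb5+/+ cortex and to 49.9 to 62.8 CPM in the hippocampus. The part of striatal tissue in the cortical Tac1 level was not tested.

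Compared per kilobase of exon, the order of the 10 genes also differed between regions of Gnb5+/+ mice. Exon length here joins the exons of all annotated isoforms, so ranks between genes depend on that annotation. The lengths of the transcripts expressed were not measured. In the cortex Sst was first (203 ± 20.6 CPM per kb, SD, n = 6), before Cck (115 ± 24.0) and Npy (102 ± 11.2). The latter neighbours overlapped in their spread. In the hippocampus Sst (186 ± 31.6) and Cck (92.2 ± 8.90) led again, and Gad1 (51.8 ± 3.57) and Npy (47.3 ± 6.92) followed within each other's spread. In the cerebellum Pvalb (346 ± 16.6), Calb2 (234 ± 17.1) and Gad1 (91.99 ± 3.38) were first. Vip and Tac1 were the last of the list in every region. Each gene ranked the 3 regions alike in Gnb5-/- and Gnb5+/+ mice by mean CPM.

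**Figure D3:**
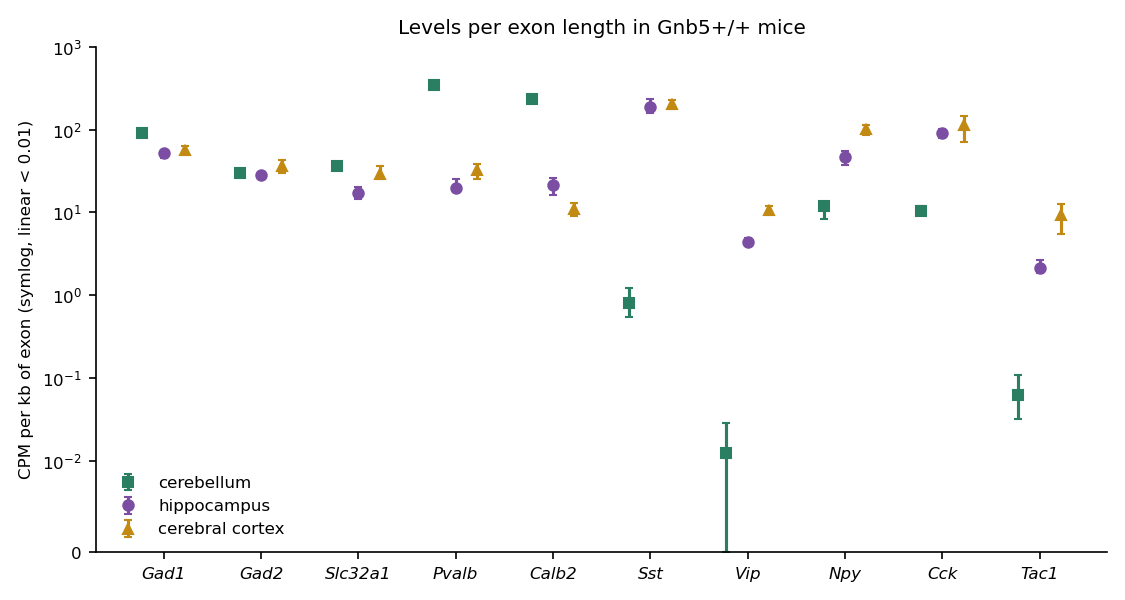
Mean CPM per kilobase of exon of each gene in the cerebellum, hippocampus and cerebral cortex of 6 Gnb5+/+ mice, on a symmetric log axis that is linear below 0.01. Bars run from the lowest to the highest library. Pvalb and Calb2 are highest in the cerebellum, and the 5 peptide genes are lowest there.

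The effect of Gnb5 loss was then tested within each region. In the hippocampus, where no library stood apart in its reads outside genes, 8 of the 10 genes had a lower mean in Gnb5-/- mice. The largest differences were in Sst and Npy, 34.8% and 29.8% lower in mean CPM. None of the 10 passed the test over all genes (edgeR, 0 of 10 called, against 0.165% of 17588 genes, 29 genes). At an unadjusted p below 0.05 there were 4 of 10, all lower, against 3.82% of all genes in that direction. DESeq2's Wald test called 2 of the 10, Sst and Npy, both lower, against 0.259% of all genes lower by that test.

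Sst was at 114 to 169 CPM in the Gnb5+/+ hippocampus (median 122) and at 58.7 to 104 CPM in the Gnb5-/- hippocampus (median 91.0). Every Gnb5-/- mouse lay below every Gnb5+/+ mouse. Sst was the 1 gene of the 10 whose hippocampal groups did not overlap, and 0.284% of all genes were as cleanly lower. The fitted log2 change was -0.62 (SE 0.13, 95% interval -0.90 to -0.34), with an adjusted p of 0.102 in edgeR and 0.000712 in DESeq2. The exact permutation test of Sst alone gave p = 0.00216 (two-sided), the smallest that 6 against 6 can give.

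Npy was at 20.9 to 31.0 CPM in the Gnb5+/+ hippocampus (median 26.6) and at 15.1 to 22.9 CPM in the Gnb5-/- hippocampus (median 19.1). The groups overlapped by 1 mouse on each side, as 5 of 6 Gnb5-/- mice lay below the lowest Gnb5+/+ mouse. Its log2 fold change was -0.52 (SE 0.11, 95% interval -0.74 to -0.29), with an adjusted p of 0.0947 in edgeR and 0.000995 in DESeq2, and the exact permutation p was 0.00433. The edgeR call turned on single libraries: without Gnb5+/+ replicate 5 the adjusted p of Npy was 0.0308, and without Gnb5-/- replicate 5 it was 0.0498. These are the mice on either side of the overlap.

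The GABA genes moved less in the hippocampus. Gad1 was at 351 to 430 CPM in Gnb5+/+ mice (median 397) and at 296 to 383 CPM in Gnb5-/- mice (median 367). All 6 Gnb5-/- mice were under the Gnb5+/+ median while the ranges overlapped. On the log2 scale Gad1 differed by -0.15 (SE 0.060, unadjusted p = 0.0234, adjusted p = 0.580 in edgeR). Slc32a1 was at 41.1 to 56.4 CPM (median 48.7) and at 33.2 to 46.5 CPM (median 44.3), or -0.19 on the log2 scale (SE 0.082, unadjusted p = 0.0348, adjusted p = 0.625 in edgeR). The ranges overlapped, and again all 6 Gnb5-/- mice were under the Gnb5+/+ median. Gad2 was at 161 to 174 CPM in Gnb5+/+ mice and at 117 to 180 CPM in Gnb5-/- mice, so the Gnb5+/+ range lay inside the other (log2 fold change -0.11, 95% interval -0.28 to 0.05).

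The ratios within a library give the same order. Per kilobase of exon, Sst stood at 3.58 ± 0.400 times Gad1 (SD, n = 6) in the Gnb5+/+ hippocampus and at 2.58 ± 0.317 times in the Gnb5-/- hippocampus. The ranges of this ratio, 3.24 to 4.18 and 2.10 to 2.96, did not overlap. It reuses the Sst values given above and is no independent evidence. Npy to Gad1 was 0.917 ± 0.154 and 0.710 ± 0.0741, with ranges that overlapped. The ratio of Sst to Npy was 3.97 ± 0.594 and 3.68 ± 0.680.

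The groups of the other markers overlapped in the hippocampus. Pvalb was at 18.4 to 26.2 CPM in Gnb5+/+ mice and 17.7 to 21.8 CPM in Gnb5-/- mice (log2 fold change -0.05, 95% interval -0.22 to 0.13). Calb2 was at 28.6 to 45.3 CPM and 31.4 to 45.2 CPM (-0.07, interval -0.33 to 0.19). Cck was at 103 to 132 CPM and 109 to 140 CPM (0.08, interval -0.06 to 0.23). All 3 overlapped widely, and a change inside these intervals was not detectable with 6 mice a group.

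Vip was at 13.6 to 16.7 CPM in the Gnb5+/+ hippocampus and at 8.11 to 24.4 CPM in the Gnb5-/- hippocampus, a spread that took in the whole Gnb5+/+ range (log2 fold change 0.14, interval -0.25 to 0.53). Tac1 was at 6.26 to 8.96 CPM and at 2.32 to 10.2 CPM, spread in the same manner (-0.35, interval -0.90 to 0.19). These 2 peptides thus varied more between Gnb5-/- than between Gnb5+/+ mice, with coefficients of variation of 32.8% against 8.44% for Vip and 47.8% against 13.6% for Tac1. The difference in spread was not tested.

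One Gnb5-/- mouse, replicate 6, had the lowest hippocampal library of all 12 for 8 of the 10 genes, all but Cck and Calb2. Without it the estimate for Sst was -0.53 (SE 0.10, adjusted p = 0.0871 in edgeR) and that of Npy was -0.46 (SE 0.10, adjusted p = 0.168), so both differences were somewhat smaller in the other 5 mice. The estimates of Gad1 and Slc32a1 shrank as well, to -0.11 (SE 0.045, unadjusted p = 0.0340 in edgeR) and -0.13 (SE 0.063, unadjusted p = 0.0592). Slc32a1 thus no longer had an unadjusted p below 0.05.

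**Figure D4:**
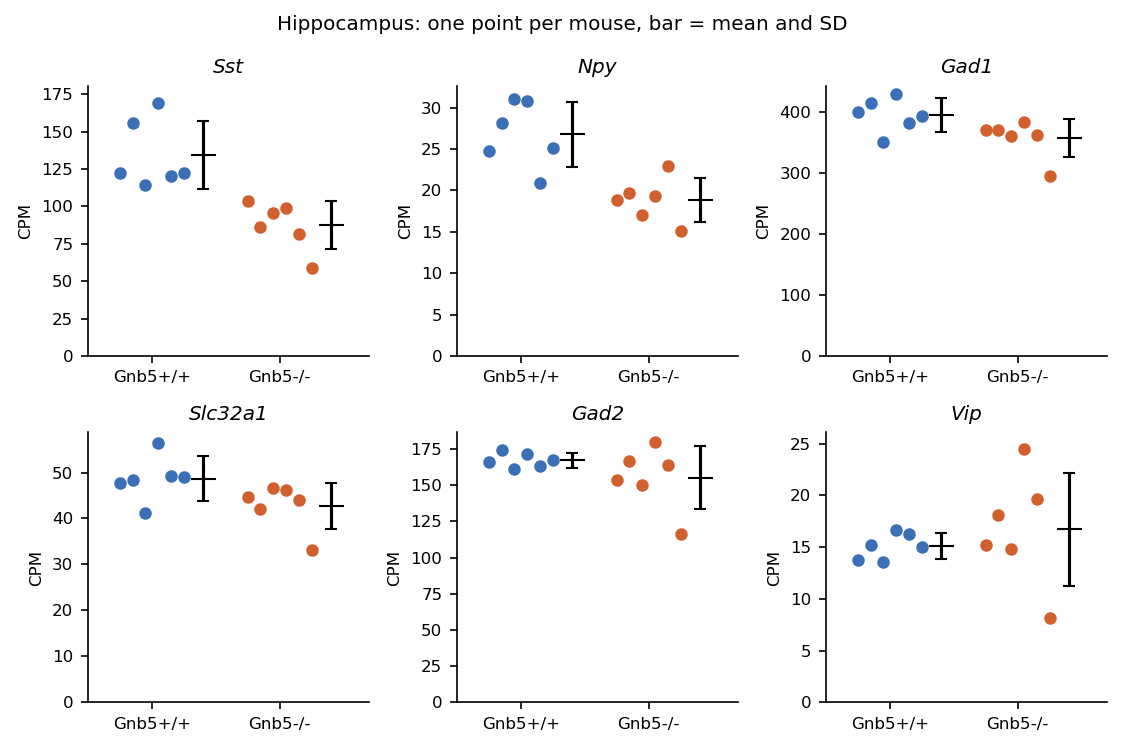
CPM in the hippocampus of 6 Gnb5+/+ (blue) and 6 Gnb5-/- mice (orange), 1 point per mouse, with the mean and SD as black bars and axes that start at 0. Sst does not overlap between genotypes (114 to 169 and 58.7 to 104 CPM), Npy overlaps by 1 mouse on each side, and the lowest Gnb5-/- point in every panel is replicate 6.

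Markers of other cells were examined beside the hippocampal differences. The 5 choroid plexus markers (Ttr, Folr1, Kl, Aqp1 and Otx2) were all lower in the Gnb5-/- hippocampus, with a median log2 fold change of -1.98, 0 called and 4 at an unadjusted p below 0.05. Their summed level spanned 35.3 to 1550 CPM in Gnb5+/+ and 35.3 to 287 CPM in Gnb5-/- mice, so the ranges overlapped and the Gnb5+/+ spread was wide. Summed excitatory neuron markers were at 5707 to 6478 CPM and 6002 to 7789 CPM, and their 6 genes had a median log2 fold change of -0.00. Summed pan-neuronal markers were at 4870 to 5381 CPM and 4906 to 5603 CPM. The 5 astrocyte markers were the one list without overlap, with summed levels of 1469 to 1588 CPM in Gnb5+/+ and 1595 to 1712 CPM in Gnb5-/- mice. The gap was narrow, from 1588.1 to 1595.3 CPM, and how often a list separates without a genotype effect was not tested. The median log2 fold change of the 5 markers was 0.06 and 0 were called. Their smallest unadjusted p was that of the water channel gene Aqp4 at 0.20 (SE 0.066, adjusted p = 0.488 in edgeR), a gene named after its values were seen. The part of tissue composition in the Sst and Npy differences was not tested.

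In the cerebellum 8 of the 10 genes had enough reads to be tested, and 0 were called (edgeR, against 0.0817% of 17139 genes, 14 genes). At an unadjusted p below 0.05 there was 1 of 8, Cck, against 5.85% of all genes. Without replicate 2 there were 2 of 8, Cck and Slc32a1, both higher, and 0 were called, against 0.359% of 17255 genes. The share of all genes at that unadjusted p was not computed without replicate 2. With all libraries DESeq2 called 0, against 0.299% of all genes, and 0 of the 10 had groups without overlap, against 1.13%. Gad1 was at 671 to 733 CPM in Gnb5+/+ and 695 to 924.5 CPM in Gnb5-/- mice, and without replicate 2 the latter reached 760 CPM (log2 fold change 0.12, SE 0.073, with it and 0.06, SE 0.037, without). Gad2 was at 160 to 185 CPM and 119 to 192 CPM (-0.08, SE 0.099, and -0.00, SE 0.049, without). Slc32a1 was at 95.1 to 108 CPM and 77.1 to 116 CPM (0.04, SE 0.095, and 0.11, SE 0.049, unadjusted p = 0.0351, adjusted p = 0.387 in edgeR, without). In all 3 the ranges overlapped with and without that library.

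Cerebellar Pvalb was at 342 to 386 CPM in Gnb5+/+ mice and at 352 to 1671 CPM in Gnb5-/- mice, where the highest library but one was at 427 CPM. The estimate of 0.74 on the log2 scale (SE 0.36, adjusted p = 0.583 in edgeR) fell to 0.12 (SE 0.058, adjusted p = 0.428) without replicate 2. Calb2 was at 380 to 462 CPM and 314 to 790 CPM, and its log2 fold change turned from 0.13 (SE 0.18) to -0.11 (SE 0.070). For both calcium buffers, then, a single library set the size of the difference.

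Cck, the 1 cerebellar gene of the 8 with an unadjusted p below 0.05 when all libraries were used, was at 12.2 to 15.4 CPM in Gnb5+/+ mice and at 14.1 to 63.6 CPM in Gnb5-/- mice, or up to 19.4 CPM without replicate 2. All 6 Gnb5-/- mice lay above the Gnb5+/+ median, and 5 of 6 above the highest Gnb5+/+ library. The estimate on the log2 scale was 0.84 (SE 0.34, adjusted p = 0.583 in edgeR) with all libraries and 0.29 (SE 0.088, adjusted p = 0.256) without replicate 2, and the exact permutation p of Cck alone was 0.0108 and 0.0173. Cck lies on chromosome 9, as Gnb5 does, 46.1 Mb away.

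Npy was at 4.66 to 7.63 CPM in the Gnb5+/+ and 4.87 to 19.1 CPM in the Gnb5-/- cerebellum (log2 fold change 0.41, SE 0.29, and 0.05, SE 0.16, without replicate 2). Sst was at 0.393 to 0.878 CPM and 0.196 to 3.38 CPM, and its log2 fold change turned from 0.59 (SE 0.62) to -0.60 (SE 0.29, adjusted p = 0.439 in edgeR), on 8 to 36 reads per library once replicate 2 (133 reads) was left out. Vip and Tac1 were not tested. In Gnb5-/- mice they had 0 to 5 and 6 to 49 reads per library, where 49 is the count of replicate 2.

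In the cerebral cortex 0 of the 10 genes were called (edgeR, against 0.0557% of 17967 genes, 10 genes). At an unadjusted p below 0.05 there were 3 of 10 (Pvalb, Vip and Tac1), all higher, against 5.72% of all genes in that direction. DESeq2 called 0, against 0.142% of all genes, and 0 of the 10 had groups without overlap, against 0.573%. Without replicates 3 and 5 there were 2 of 10 at an unadjusted p below 0.05, Sst and Npy, both lower. In that fit 0 were called, against 0.142% of 18269 genes. The share of all genes at that unadjusted p was not computed without these replicates. The fitted log2 fold change of 8 of the 10 was above 0 with all libraries, and that of 4 of 10 without the pair. The 4 genes whose fitted direction turned were Sst, Npy, Cck and Calb2.

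Cortical Sst was at 127 to 167 CPM in Gnb5+/+ mice (median 143) and at 102 to 820 CPM in Gnb5-/- mice (median 136). Replicates 3 and 5 were above all Gnb5+/+ libraries and the other 4 were at 102 to 138 CPM. On the log2 scale Sst differed by 0.79 (SE 0.47, adjusted p = 0.474 in edgeR) with all libraries and -0.28 (SE 0.096, unadjusted p = 0.0115, adjusted p = 0.955) without the 2. Npy was at 48.7 to 64.7 CPM and 43.5 to 193 CPM, with the other 4 Gnb5-/- libraries at 43.5 to 53.1 CPM. Its log2 fold change was 0.44 (SE 0.33) and -0.23 (SE 0.084, unadjusted p = 0.0151, adjusted p = 0.974). In the 4 remaining Gnb5-/- libraries the means of Sst and Npy were thus lower in the cortex as in the hippocampus, at a smaller size and without passing the test. For each gene the groups still overlapped, with 2 of the 4 libraries below the lowest Gnb5+/+ library. Cck, at 0.08 in the hippocampus, was as low in this cortical fit (-0.29, SE 0.17). The 2 libraries were left out after the data were seen. The cortical and hippocampal libraries share mice and are no independent evidence for each other.

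Cortical Pvalb was at 26.7 to 40.0 CPM in Gnb5+/+ mice and at 36.04 to 327 CPM in Gnb5-/- mice, and at 36.04 to 41.6 CPM without the 2 libraries. On the log2 scale Pvalb differed by 1.46 (SE 0.54, adjusted p = 0.474 in edgeR) and 0.18 (SE 0.099, adjusted p = 0.979). Calb2 was at 15.9 to 22.5 CPM and 15.2 to 80.5 CPM (0.76, SE 0.38, and -0.12, SE 0.11). Cck was at 92.7 to 189 CPM and 97.02 to 1026 CPM (0.97, SE 0.55, and -0.29, SE 0.17). For each of them the standard error shrank when the 2 libraries were left out.

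Vip was at 32.0 to 41.1 CPM in the Gnb5+/+ and 35.1 to 106 CPM in the Gnb5-/- cortex (log2 fold change 0.62, SE 0.26, and 0.10, SE 0.091, without the 2 libraries). Tac1 was at 18.5 to 43.4 CPM and 32.96 to 181 CPM (1.05, SE 0.42, and 0.18, SE 0.16). The striatal markers summed to 254 to 589 CPM in Gnb5+/+ and 424 to 651 CPM in Gnb5-/- cortex beside it, and their part was not tested. Gad1 was at 373 to 491 CPM and 419 to 692 CPM (0.21, SE 0.125, and 0.05, SE 0.070). Gad2 was at 174 to 253 CPM and 145 to 222 CPM (-0.13, SE 0.12, and -0.02, SE 0.091), and Slc32a1 at 71.2 to 101 CPM and 62.7 to 88.1 CPM (-0.11, SE 0.11, and -0.00, SE 0.086). With the 2 libraries left out, the cortical levels of the 3 GABA genes differed by 0.05 or less on the log2 scale.

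**Figure D5:**
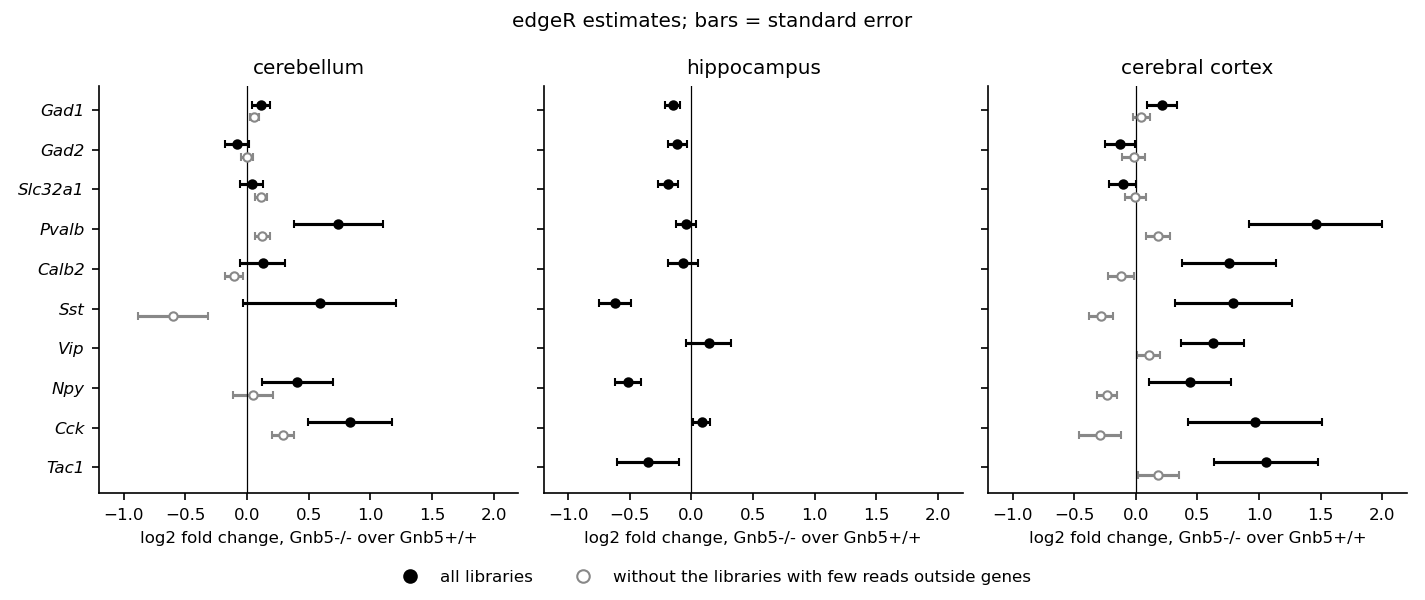
log2 fold changes of the 10 genes, Gnb5-/- over Gnb5+/+, in each region as estimated by edgeR, with standard errors as bars. Black points use all 12 libraries of a region and open points leave out cerebellum replicate 2 or cortex replicates 3 and 5. Sst at -0.62 and Npy at -0.52 in the hippocampus are the points that lie furthest below 0 with all libraries, and most cortical points move close to 0 when the 2 libraries are left out.

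The difference of the genotype effect between regions was tested directly, with each mouse as a block. None of the 10 genes was called in any of the 3 contrasts (edgeR, 0 called each), where 0%, 0.0103% and 0.0258% of 19388 genes were called for hippocampus against cortex, cerebellum against cortex and cerebellum against hippocampus. With all libraries there were, at an unadjusted p below 0.05, 2 of 10 (Gad1 and Tac1) in the first, 0 in the second and 2 (Gad1 and Npy) in the third, against 4.42%, 3.72% and 3.72% of all genes. For Sst the effect in the hippocampus minus that in the cortex was -1.04 on the log2 scale (95% interval -2.21 to 0.14). Without the 3 libraries that stand apart it was -0.34 (SE 0.13, unadjusted p = 0.0159, adjusted p = 0.686 in edgeR), and without cortex replicate 3 alone -0.48 (SE 0.41). The hippocampal shift of Sst was not shown to be particular to that region.

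Other genes of the same cells were read from fixed lists, and 0 genes of any list were called in any region (edgeR). The lists were read from the edgeR fits alone. In the hippocampus, 14 transcription factors of interneurons had a median log2 fold change of -0.08, against 0.00 for all genes tested, and 12 of 14 were negative. Of all genes tested 50.1% were positive. The summed level of the 14 was not lower, at 362 to 421 CPM in Gnb5+/+ and 377 to 410 CPM in Gnb5-/- mice. The smallest unadjusted p among the transcription factors was that of Sox6, a factor of Sst and Pvalb cells, at -0.21 (SE 0.052, adjusted p = 0.188). The study, which used DESeq2, reported Sox6 as differentially expressed in the hippocampus. Of 18 other interneuron subtype genes 17 were tested, with a median of -0.11 and 14 negative, led by Nos1, the neuronal nitric oxide synthase, at -0.26 (SE 0.056, adjusted p = 0.113). The 7 genes of GABA handling had a median of -0.02, led by the glutamine transporter Slc38a1 at -0.11 (SE 0.038, adjusted p = 0.532).

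The receptors of the peptides lay around 0 in the hippocampus. Of 15 receptors 13 were tested, 9 were positive and the median log2 fold change was 0.06, with Npy5r at 0.13 (SE 0.065, adjusted p = 0.683). The 10 genes of peptide processing had a median of -0.01, with the convertase Pcsk2 at 0.09 (SE 0.047, adjusted p = 0.684). The 10 other neuropeptides had a median of 0.06, with Penk, the enkephalin precursor, at 0.26 (SE 0.087, adjusted p = 0.506).

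With all libraries, those that stand apart included, the genes of smallest unadjusted p in the cerebellum were Adcyap1 among other neuropeptides (log2 fold change -1.70, SE 0.44), Pnoc among subtype genes (0.74, SE 0.28), Chga in peptide processing (0.35, SE 0.13), Vipr1 among receptors (-0.43, SE 0.20), Sox6 among transcription factors (-0.26, SE 0.13) and Slc6a11 in GABA handling (-0.15, SE 0.12). In the cortex they were Pdyn (0.67, SE 0.20), Crh (0.73, SE 0.32), Cpe (0.52, SE 0.25), Npy1r (-0.19, SE 0.087) and Slc12a5 (-0.21, SE 0.11) for the same lists, transcription factors aside. None was called. In cortex replicate 3 the summed peptide processing genes were at 9424 CPM against 3654 to 3966 CPM in the 10 cortical libraries that do not stand apart, so this list moved with the displaced peptides.

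Likeness between genes was described by the correlation of log2 CPM after subtraction of group means, over 16159 genes tested in all regions. Over 36 libraries the values follow the 3 that stand apart, so the partners are given over the other 33. Sst was most like Sema4a (Pearson's r = 0.82) and Ly6h (0.78), and Npy most like Tubb3 (0.73) and Baalc (0.71). Gad1 was most like Fgf11 (0.80) and Cacna2d2 (0.79), and Gad2 most like Cacna2d2 (0.84) and Abat, the GABA transaminase (0.83). Slc32a1 was most like 1700037H04Rik (0.78) and Igsf21 (0.77). Pvalb was most like Vamp1 (0.75) and Ankrd13d (0.70), Calb2 most like Pcsk4 (0.65) and Car10 (0.64), and Cck most like Puf60 (0.85) and Maz (0.84). Vip and Tac1 were not tested in the cerebellum and have no partners. With all 36 libraries the partner of Pvalb was Bag1 (0.99) and that of Cck Zfp428 (0.98).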

How the data were processed

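Per the labels and the study's methods, total RNA was made into stranded total RNA libraries and sequenced for 125 single-end cycles. The deposited files held raw read counts per gene, which the authors made with cutadapt 1.8, STAR 2.5.3a on GRCm38 and htseq-count 0.9.1 on Ensembl 92 genes. Counts were whole numbers, not normalised. Reads outside genes, 6.86% to 16.97% of the uniquely aligned reads, stayed out of the tests. Symbols, exon lengths and coordinates came from GENCODE M21 (GRCm38), which matched 53620 of 53715 identifiers. The 36 heart libraries of the series were not used. No gene overlapping the 10 on either strand had more than 15 counts in a library.

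Groups and mice were taken from the sample titles. Genotypes were compared within a region, regions among the 18 Gnb5+/+ libraries, and genotype effects between regions over all 36 with the mouse as a block, by edgeR 4.0.16 (R 4.3.3) quasi-likelihood tests on all genes with TMM factors and filterByExpr (count minimum 10). Adjustment was by Benjamini-Hochberg across every gene in a fit, with 0.05 as the limit for a call. The standard error is the fold change over the root of F. Levels are CPM with TMM factors over 36 libraries, and log2 values have a prior count of 2. Single genes were also tested by exact permutation, two-sided. Scripts were tested on simulated data. Precision is that of the spread between mice, which includes counting error.

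The 10 genes, the lists and the tests were chosen with earlier results of these data known. All 10 genes were named in every group. From each of the 6 lists of GABA handling, transcription factor, subtype, receptor, processing and other neuropeptide genes the text names every called gene or else that of smallest unadjusted p, and for likeness the 2 genes of highest r. The transcription factor so chosen in the cortex is not reported here. Same-mouse libraries of 2 regions deviated together (median r of deviations 0.33, over 0.1 in 32 of 36 pairs), so the mouse block is a true pairing between regions.

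Alternatives were DESeq2 1.42.0, RLE factors, no filter, 10 counts in every library, robust estimation, replicate blocks, a fold threshold and leaving out each library. Those without the libraries with few reads outside genes, and with that share as a covariate, were chosen after seeing the data.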

Additional observations from a re-analysis of the deposited data

Results flagged for a closer look

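In 16 of the 56 combinations of gene and group examined, the highest or lowest library lay further from the rest than Dixon's ratio allows for 6 values (0.625). Chance gives this in about 1 of 20 groups. Of the 16 values, 11 came from 2 of the Gnb5-/- libraries with few reads outside genes, and Vip and Tac1 in the cerebellum were not examined.

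Cerebellum replicate 2 of Gnb5-/- was the highest of its group for 6 genes: Pvalb at 1671 CPM (other libraries 352 to 427), Calb2 at 790 CPM (314 to 413), Gad1 at 924.5 CPM (695 to 760), Cck at 63.6 CPM (14.1 to 19.4), Npy at 19.1 CPM (4.87 to 9.30) and Sst at 3.38 CPM (0.196 to 0.529). Cortex replicate 3 of Gnb5-/- was the highest for 5 genes: Cck at 1026 CPM (97.02 to 241), Sst at 820 CPM (102 to 221), Pvalb at 327 CPM (36.04 to 78.4), Npy at 193 CPM (43.5 to 80.8) and Tac1 at 181 CPM (32.96 to 69.4).

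The other 5 values were in libraries with a usual share of reads outside genes. Hippocampus replicate 6 of Gnb5-/- was the lowest for Gad1 at 296 CPM (361 to 383) and for Slc32a1 at 33.2 CPM (42.1 to 46.5). Hippocampus replicate 4 of Gnb5+/+ was the highest for Pvalb at 26.2 CPM (18.4 to 21.1) and for Tac1 at 8.96 CPM (6.26 to 7.25). Cerebellum replicate 1 of Gnb5+/+ was the lowest for Npy at 4.66 CPM (6.70 to 7.63).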

How the results depend on the processing

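Of the 10 genes, 0 were called in the knockout hippocampus by edgeR and 2 (Sst and Npy) by DESeq2, and leaving out 1 library gave 0 to 1 (Npy). Between the hippocampus and the cortex of Gnb5+/+ mice 8 became 3 with a fold threshold and 7 to 9 without 1 library. Over all genes, DESeq2 raised the calls from 14 to 62 in the cerebellum, from 29 to 110 in the hippocampus and from 10 to 35 in the cortex. Leaving out the libraries with few reads outside genes gave 62 in the cerebellum and 26 in the cortex, the covariate for these reads 39 in the cerebellum, and 10 counts in every library 6 in the cortex. For the differences between regions the calls over all genes (0, 2 and 5) were 3, 15 and 18 without these libraries and 1, 11 and 11 in DESeq2 with no replicate block, and the 2 became 4 in edgeR with no such block. The fold threshold left 1658, 5625 and 5666 of 8976, 14387 and 14338 regional calls. A minimum of 10 counts in every library left out Vip and Tac1, so that the regional calls of 8, 10 and 9 genes became 6, 8 and 7. RLE factors, no filter and robust estimation moved no call of the 10 genes and no direction. DESeq2 gave no adjusted p for Pvalb and Sst in the cerebellum.

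Genotypes share replicate numbers but not mice (median r of deviations -0.09, 0 of 18 pairs over 0.1), so that replicate block is no pairing. With it 5, 19 and 6 genes were called in the cerebellum, hippocampus and cortex, 0 of them among the 10, and the adjusted p was 0.0721 for Sst and 0.279 for Npy in the hippocampus. Cerebellar Sst turned to -0.016. The mouse as a replicate block between regions called Gad1 besides the 8. Without that block, the difference of the knockout effect between the cerebellum and the cortex turned to -0.027 for Npy and -0.13 for Cck in edgeR, and to -0.014 and -0.11 in DESeq2.

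Other log2 fold changes turned as follows, and the cause was not tested. With a covariate for the reads outside genes, the cerebellum gave Gad2 0.067, Pvalb -0.13, Sst -0.97, Npy -0.17 and Calb2 -0.25, and the cortex Sst -0.37, Npy -0.29, Cck -0.41 and Calb2 -0.13. Without the 2 cortical libraries the cortex gave Sst -0.28, Npy -0.23, Cck -0.29 and Calb2 -0.12. Without all 3, the difference of hippocampus and cortex was -0.11 for Gad2, 0.38 for Cck and 0.089 for Calb2, that of cerebellum and cortex 0.021 for Gad1 and 0.062 for Calb2, and that of cerebellum and hippocampus -0.084 for Vip and -0.027 for Calb2.

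Leaving out 1 library spread the knockout effect from -0.60 to 0.78 for Sst and from -0.11 to 0.20 for Calb2 in the cerebellum, from -0.079 to 0.033 for Pvalb in the hippocampus, and in the cortex from -0.059 to 0.95 for Sst, -0.061 to 0.56 for Npy and -0.036 to 1.14 for Cck. For the difference of cerebellum and cortex the ranges were -0.16 to 0.014 for Gad1, -0.050 to 0.15 for Gad2, -0.88 to 0.13 for Pvalb, -1.07 to 0.52 for Sst, -0.59 to 0.067 for Vip, -0.26 to 0.46 for Npy, -0.24 to 0.76 for Cck and -1.005 to 0.30 for Tac1. For hippocampus and cortex they were -0.077 to 0.0092 for Gad2 and -0.37 to 0.20 for Cck, and for cerebellum and hippocampus -0.097 to 0.998 for Sst, -0.16 to 0.25 for Vip and -0.13 to 0.12 for Calb2. At 0 to 15 reads per Gnb5+/+ library, Vip and Tac1 in the cerebellum are limited by depth.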
